A study of Mus musculus with 2 samples.

Results

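The Sfmbt2 intron microRNA cluster is a long tandem array of microRNA genes that lies within the gene Sfmbt2 and on its strand. Its members were taken as the genes of the deposited tables that lie inside the mm10 coordinates of Sfmbt2 on the strand of Sfmbt2, a choice that uses no measured value. They numbered 107 of the 1973 genes in the tables. GENCODE M21 places 119 genes there, and for 12 of them, among them 9 Mir669a genes, no row was matched by identifier. The tables also hold 79 rows that matched no M21 gene, and whether any of these stands for 1 of the 12 is not known. MicroRNAs were sequenced in total RNA from hindbrain. The mice were of strain B6NCrl, newborn (postnatal day 0), with no treatment named in the labels. The 2 libraries come from 2 pups, called pup 1 and pup 3 in the labels, and form 1 group. There is therefore no condition to compare, and the data bear on which members were present and how far the pups differed.

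Sfmbt2 encodes a Polycomb-group protein and is an imprinted gene that is read from the paternal chromosome in the placenta and early embryo. The microRNA array in its intron is a rodent feature, built from repeated copies of the Mir297, Mir466, Mir467 and Mir669 families, and is known from the placenta and from embryonic stem cells. As in other intronic clusters, the hairpin precursors are cut out of the host transcript, and a mature microRNA binds messenger RNAs mainly through its seed, bases 2 to 8.

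The array spans 53.0 kb of chromosome 2, from 10465287 to 10518279 of mm10. Sfmbt2 itself covers 10370510 to 10595253. All 107 members lie in intron 10 of the Sfmbt2 transcript with 23 exons used here, and none touches an exon of any annotated Sfmbt2 transcript. Intron 10 is 62.5 kb long, and the median gap between neighbouring members was 210 bp. By symbol the members are 14 Mir467 genes, 20 Mir669 genes, 20 Mir466 genes, 5 Mir297 genes and 48 genes with only a Gm number. Of the 48 Gm genes, 42 had their longest identical stretch, 24 to 113 nt, with a Mir669 member, 3 with a Mir466 member and 1 (Gm25022, 83 nt) with a Mir467 member. The other 2 Gm genes shared fewer than 20 nt with any member that carries a family name.

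Mature sequences are shown to let the repeat-like make-up of these families be seen. By symbol, 0 of the 107 members and 8 of the 10 genes of the same families outside Sfmbt2 matched the RefSeq table of mature sequences (GRCm38.p6). These 8 sequences follow, in 5′ to 3′ order with the seed in capitals.
miR-467h: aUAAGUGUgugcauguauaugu
miR-467g: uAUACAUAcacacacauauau
miR-466i-3p: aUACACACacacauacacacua
miR-466j: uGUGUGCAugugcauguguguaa
miR-669n: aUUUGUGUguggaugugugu
miR-466q: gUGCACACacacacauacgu
miR-466k: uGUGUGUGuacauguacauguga
miR-467f: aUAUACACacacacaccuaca

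Each of these is rich in alternating UG or CA. The share of neighbouring base pairs along the sequence that were UG, GU, CA or AC ran from 50% in miR-467g to 78.9% in miR-466q. In miR-466j it was 72.7% and in miR-467h 52.4%. The seeds were looked for as heptamers anywhere in a precursor. AUACAUA was found on the gene strand of 66 of the 107 members, against 143 of all 2202 annotated precursors (6.49%). GUGUGCA was found in 52 members (106 of all precursors, 4.81%) and UACACAC in 51 members (180 of all, 8.17%). GUGUGUG was found in 38 members (210 of all, 9.54%), UGCACAC in 30 (58 of all, 2.63%), UAUACAC in 27 (113 of all, 5.13%) and UUUGUGU in 10 (57 of all, 2.59%). On the opposite strand AUACAUA was found in 10 members (4.63% of all precursors), GUGUGCA in 30 (2.63%) and UACACAC in 75 (9.85%). There GUGUGUG was found in 61 members (8.99% of all), UGCACAC in 52 (4.81%), UAUACAC in 86 (8.36%) and UUUGUGU in 9 (0.863%). UGCACAC is the reverse complement of GUGUGCA, so these are 1 motif read on both strands. These heptamers can share letters where they lie side by side in a repeat. UAAGUGU, the seed of miR-467h, was found on the gene strand of 1 member, Mir467e, and in 14 of all precursors (0.636%), and on the opposite strand of 1 member and 10 precursors (0.454%). A match is only a match of letters and not a mature end.

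The precursors shared this make-up beyond the seeds. In the median member 48.6% of neighbouring base pairs were TG, GT, CA or AC, against 26.6% in the median of 1787 other genes with a precursor sequence. The median GC content was 38.3% in members and 52.0% in the others. Folding energy per base, computed with RNAfold, was similar in both, at a median of -0.37 and -0.38 kcal per mol and nt. Most members had copies of part of their sequence. Of the 107, 105 shared an identical stretch of 20 nt with at least 1 other annotated microRNA gene on either strand, or 98.1%, against 46.1% of the 1787 others. The exceptions were Gm22239 and Mir466g. The median member shared 20 nt with 19 other genes, and Gm24342 with 128. For 34 members every such gene was itself a member, while 71 shared with at least 1 gene that was not among the 107. Those genes can include the 12 without a matched row, which also lie within Sfmbt2. Among the 71, Mir669e shared with no member. The whole precursor of 38 members was identical to that of another member, and these included 9 of the 10 Mir467a genes and 21 Gm genes.

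Both libraries held these members at a low share of all counts. The array took 11092 of 2459757 same-strand counts in pup 1 and 14488 of 3012320 in pup 3. As CPM, counts scaled to a common library total, this was 4509 and 4810, or 0.466% ± 0.0212 of counts (SD, n = 2, as for all values given with ±). The exact 95% binomial (Clopper-Pearson) interval of the share was 0.443% to 0.459% in pup 1 and 0.473% to 0.489% in pup 3. Summed over all 107 members, the array was below 47 single genes of the tables, and its nearest single genes in level were Mir181a-1 (4625 ± 104 CPM), Mir434 (4694 ± 108 CPM) and Mir151 (4866 ± 670 CPM). No count at any member fell on the opposite strand.

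Few members carried these counts. A total of 10 members reached at least 10 counts in either library, 12 had 1 to 9 counts and 85 had none. Members with at least 10 counts were 9.35% of the array, where 20% of all 1973 genes passed the same limit. Members with any count were 20.6%, against 35.4% of all genes. The tables hold only reads that map to a single locus, as inferred from their layout, and reads with several loci made up 40.2% (pup 1) and 42.0% (pup 3) of the reads. These reads outnumbered the counts of the whole array by 211 and 208 to 1, and their part in the empty members was not tested. For singly mapped reads, the limit behind a 0 is 3 counts, which is 1.22 CPM for pup 1 and 0.996 for pup 3. Intervals and floors cover counting error only, since reads carry no molecular identifiers. A member at 0 is thus not shown to be absent from the tissue.

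**Figure D1:**
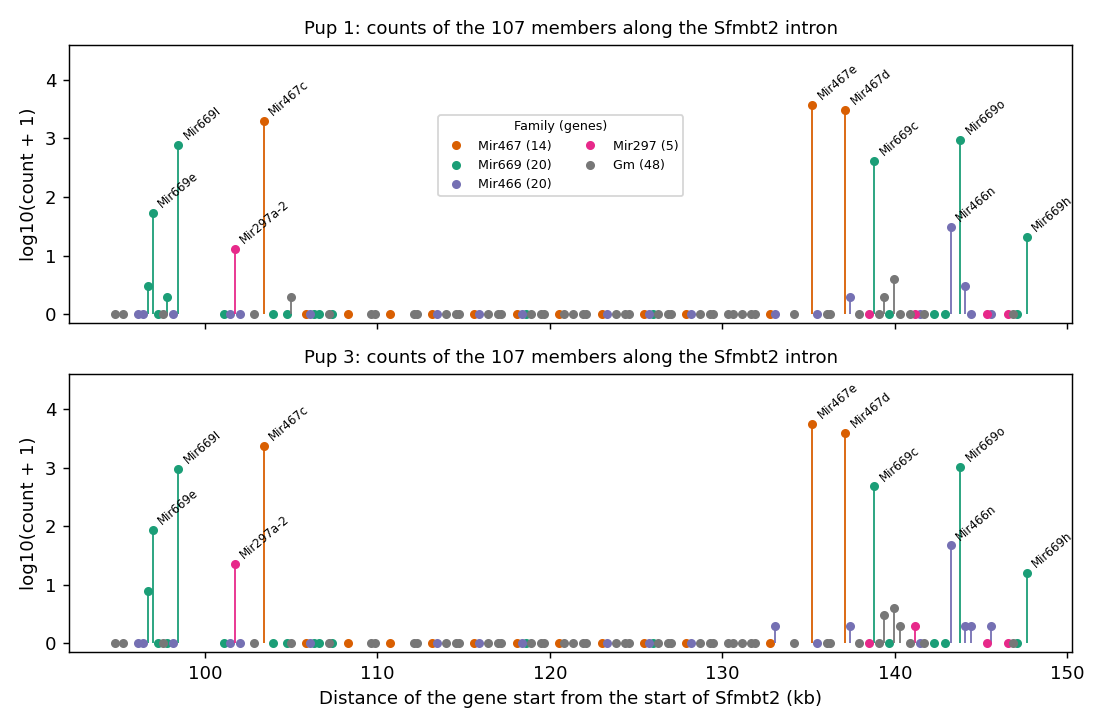
Counts of the 107 members by distance of the gene start from the start of Sfmbt2 (kb), as log10(count + 1), for pup 1 (top) and pup 3 (bottom), with colours for the families. The 10 named members stand at both ends of the array, and the stretch between Mir467c and Mir467e holds 1 count in each pup.

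The Mir467 family held most of the array's counts through 3 of its 14 members. It held 3757 ± 238 CPM, which was 79.6% of the array in pup 1 and 81.6% in pup 3. Mir467e (ENSMUSG00000076948.2, chromosome 2, 10505721 to 10505807) had 3763 counts in pup 1 and 5547 in pup 3, or 1530 and 1841 CPM. It had the most counts of all members in both pups and ranked 90 among all genes by mean CPM. Mir467d (10507630 to 10507714) had 3053 and 3942 counts, or 1241 and 1309 CPM. Mir467c (10473931 to 10474027) had 2011 and 2336 counts, or 818 and 775 CPM. The values of these 3 genes in the 2 pups did not overlap. Reads of a microRNA cover a mature RNA of about the same length in each gene, so CPM were compared between genes with no further correction for length. CPM hold only reads with a single locus, and members differ in how much of their sequence has copies elsewhere. The order of members is thus one of singly mapped counts and not of abundance in the tissue.

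The other 11 Mir467 members, the 10 Mir467a genes and Mir467b, had 0 counts in both pups. Their precursors share 20 nt with 14 other genes each, and Mir467c, Mir467d and Mir467e with 14 to 16. The 2 groups also differed in how much sequence was their own, and the part of either trait in the 0 counts was not tested. In 10 of the 11, no 20-nt window of the precursor was free of a copy elsewhere among annotated microRNA genes, and Mir467b had 20.4% of such windows. In Mir467d, Mir467e and Mir467c the share of own windows was 37.9%, 57.4% and 60.3%. Mir467c and Mir467e shared a stretch of 48 nt, and Mir467d shared 60 nt with Mir467a-10.

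The Mir669 family was second, at 879 ± 30.4 CPM, with 19.97% of the array's counts in pup 1 and 17.8% in pup 3. Its 5 members with at least 10 counts fell into a group of 3 well-counted genes and a pair of low ones. Mir669o (10514300 to 10514395) had 949 counts in pup 1 and 1044 in pup 3 (386 and 347 CPM). Mir669l (10468971 to 10469068) had 776 and 949 counts, and its CPM were nearly equal at 315.5 and 315.04. Mir669c (10509296 to 10509404) had 414 and 481 counts (168 and 160 CPM). These 3 genes kept their order in both pups without overlap.

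Mir669e (10467495 to 10467613) had 53 counts in pup 1 and 87 in pup 3, or 21.5 and 28.9 CPM. It shared 20 nt with 1 other gene and had 95% of its windows to itself, the highest share among the 10 counted members. Mir669h, the last gene of the array (10518155 to 10518279), had 20 and 15 counts, or 8.13 and 4.98 CPM. Of the other 15 Mir669 members, Mir669f had 2 and 7 counts, Mir669d had 1 and 0, and 13 had none. Members below 10 counts that are named here, apart from Gm genes, were chosen after their values were seen.

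The Mir466 and Mir297 families had few counts. Mir466n (10513741 to 10513834) was the one Mir466 gene of 20 with at least 10 counts, at 30 in pup 1 and 46 in pup 3 (12.2 and 15.3 CPM). A further 5 Mir466 genes had 1 to 3 counts over both pups and 14 had none, so that the whole family came to 15.2 ± 2.49 CPM. Mir466g, chosen after its values were seen, had 2 and 1 counts although it shares no 20 nt with another microRNA gene. Among the 5 Mir297 genes, Mir297a-2 (10472254 to 10472343) had 12 and 22 counts, or 4.88 and 7.30 CPM, Mir297b had 0 and 1, and 3 had none. The levels of Mir669h and Mir297a-2 overlapped between the pups, so their order is not settled by these libraries.

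The 48 Gm genes together had 5 counts in pup 1 and 6 in pup 3. Gm22239 had 3 and 3, Gm25263 had 1 and 2, Gm26491 had 1 and 0, and Gm22925 had 0 and 1. No Gm gene was above the 3 counts that a count of 0 allows.

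**Figure D2:**
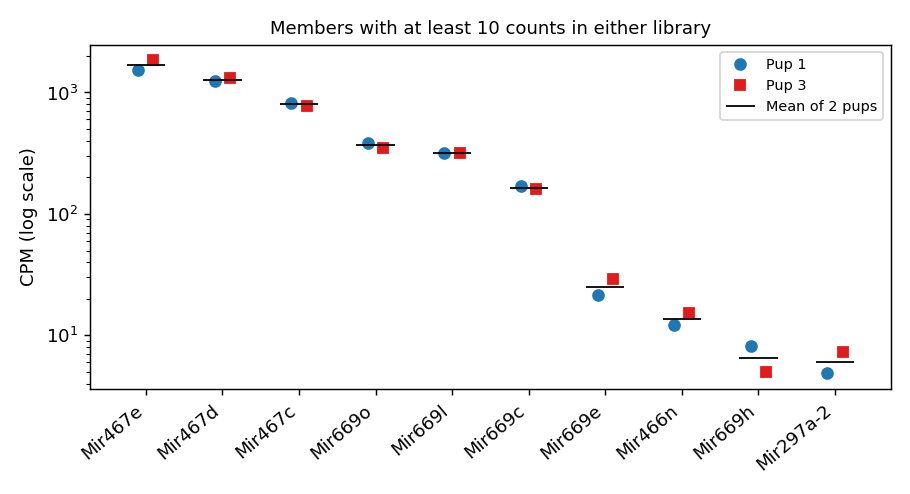
CPM on a log axis in pup 1 (circles) and pup 3 (squares) of the 10 members that reached 10 counts, with the mean of the 2 pups as a line. Levels run from 1686 ± 220 CPM for Mir467e to 6.09 ± 1.71 CPM for Mir297a-2, and the pups overlap between neighbours in that order at Mir669h and Mir297a-2.

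Levels fell steeply along this order. The 6 members with the most counts held 98.9% of the array's counts in pup 1 and 98.7% in pup 3, and the 10 with at least 10 counts held 99.9% in each. The 12 members with 1 to 9 counts summed to 11 counts in pup 1 and 19 in pup 3. The order of the 8 members with the most counts was the same in both pups.

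Counted members lay at both ends of the array. The limits of the following blocks were chosen after the values were seen. From the first member to Mir467c lie 17 members over 8.74 kb, of which 4 had at least 10 counts, and they held 25.7% and 23.5% of the array's counts in pups 1 and 3. From Mir467e to the last member lie 30 members over 12.6 kb, of which 6 had at least 10 counts, and they held 74.3% and 76.5%. Between Mir467c and Mir467e lie 60 members over 30.3 kb. They had 1 count in pup 1, at Gm26491, and 1 in pup 3, at Mir466b-3.

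The empty middle is the regular part of the array. The starts of the Mir467a genes, Mir467b and Gm25022, the last identical over its whole 83 nt to Mir467a-8, followed each other there at 2413 to 2470 bp, with a median of 2451 bp. Members between Mir467c and Mir467e had a median of 0% of 20-nt windows free of a copy in another microRNA gene, whereas the medians of the blocks before and after were 44.0% and 51.3%. All 38 members with a precursor identical to another member's had 0 counts in both pups. Where only reads with a single locus are counted, as inferred, a read from within such a precursor cannot give a count. This outcome was therefore fixed in advance and says nothing of their levels.

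**Figure D3:**
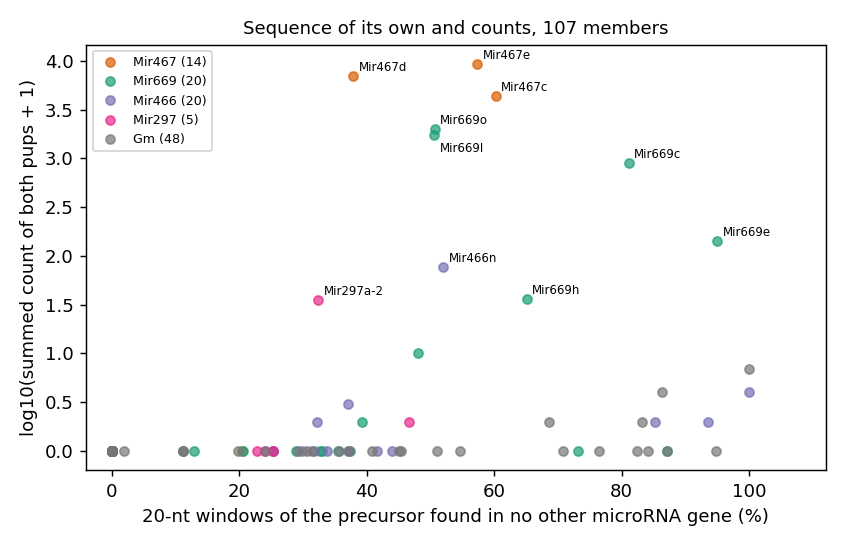
Share of 20-nt windows of each precursor found in no other annotated microRNA gene (x axis, %) against log10(summed count of both pups + 1) for the 107 members, coloured by family. The 42 members at 0% had no count, and the 10 named members lie between 32.4% and 95%. Only reads with a single locus are counted, as inferred, so a read that lies wholly within a copied stretch gives no count.

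Across the array, counts were found where a precursor had sequence of its own, but own sequence did not always come with counts. None of the 42 members without an own 20-nt window had a count, an outcome largely set in advance by counting only reads with a single locus. Of the 40 members with up to 50% own windows, 2 had at least 10 counts and 33 had none. Of the 25 members above 50%, 8 had at least 10 counts, 7 had fewer and 10 had none. The last 10 included Mir669b and Mir669i, the others being Gm genes. Windows were compared with annotated microRNA precursors only and not with the whole genome, so a window counted as own may still have copies elsewhere.

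The share of well-counted members was close to that of other genes with copies. Outside the array, 824 genes shared 20 nt with another microRNA gene, and 9.10% of them had at least 10 counts, against 9.35% of the array. Of the 963 other genes that shared no such stretch, 32.2% passed the same limit. These shares are descriptions and were not tested against each other. Nor were the groups alike in how much they share. Genes outside the array with at least 10 counts shared 20 nt with at most 6 genes. Members with at least 10 counts did so with a median of 24 and up to 56.

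Genes of the same families that lie elsewhere had no counts at all. The 10 genes are Mir297-1, Mir466f-4, Mir466i, Mir466j, Mir466k, Mir466q, Mir467f, Mir467g, Mir467h and Mir669n, and all were at 0 in both pups, where 35.4% of all genes had a count. Of these, 9 share 20 nt with another microRNA gene. Mir669n on chromosome 3 (115979902 to 115979955), named after its values were seen, shares none and was also at 0.

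Some microRNAs of other imprinted loci had higher CPM of singly mapped reads than any member of the array. Most of those listed share no 20 nt with another microRNA gene, whereas 105 of the 107 members do. The part of shared sequence in the comparisons that follow was not tested, and they are not comparisons of abundance in the tissue. In a list of 15 microRNA genes of other imprinted loci, 13 had a row, and all 13 had at least 10 counts (20% of all genes did). Their median was 3052 CPM, the level of Mir154. Most of the 13 come from the Dlk1-Dio3 cluster on chromosome 12 (Mir127, Mir379, Mir410, Mir382, Mir369, Mir487b, Mir154 and Mir376c). The list thus describes that locus more than imprinted loci in general. The median over the 107 members, 85 of them without a count, was 0 CPM, as over all genes. Mir335, in an intron of Mest, had 32818 ± 1634 CPM, Mir298 near Gnas had 2824 ± 285 CPM, and Mir675, inside H19, had 7.61 ± 4.19 CPM. Mir467e, at 1686 CPM, was below 9 of the 13 and above Mir376c (712 ± 186 CPM), Mir410 (409 ± 57.7 CPM), Mir483 (246 ± 42.6 CPM) and Mir675. Mir467d and Mir467c were above the same 4 genes by mean, though the pups' values of Mir467c and Mir376c overlapped. Other microRNAs known from pluripotent cells, the Mir290 and Mir302 clusters, were lower in sum. Of 14 listed, 12 had a row, 9 had a count, and together they came to 375 ± 45.2 CPM, led by Mir302d at 131 ± 1.67 CPM. The tissue label was checked on 10 neuronal microRNA genes, of which 8 reached 10 counts and which summed to 39931 ± 2011 CPM. Mir149 (16538 CPM) and Mir137 (12408 CPM) made up most of that sum, whereas the neuronal Mir124a-1, Mir124a-2 and Mir124a-3 were at 5.26, 2.31 and 0.942 CPM. Each Mir124a gene shares 20 nt with 2 other microRNA genes, and reads with several loci are not in these counts. Their low counts are thus not shown to be low levels in the tissue. Of 6 Hox-encoded genes, Mir10a (29630 CPM) and Mir10b (15527 CPM) made up nearly the whole sum of 45704 ± 16154 CPM. Mir196a-1, which shares 20 nt with 1 other microRNA gene, was at 0. Lists of other cell types summed to 35574 CPM for the endothelial Mir126a, 385 for leukocytes, 128 for red blood cells and 113 for striated muscle. The same limit holds for the muscle genes Mir1a-1, Mir133a-1 and Mir133a-2, at 0 and each sharing 20 nt with 2 other microRNA genes.

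The array's summed counts had a log2 fold of 0.04 for pup 3 over pup 1 (95% counting interval 0.004 to 0.08), after scaling the libraries by TMM factors. With 1 library for each pup there is no replicate error for this sum. The fold was 0.093 under plain totals and 0.059 under DESeq2 size factors, and -0.035 when TMM factors were computed over genes with at least 10 counts only. Under the same TMM factors as at first, leaving out Mir467e gave -0.059.

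Of the 10 members with enough counts to compare, 1 was higher and 2 were lower in pup 3. The test was an exact binomial test of the 2 counts of each gene, two-sided and with Benjamini-Hochberg adjustment over the 395 genes that reached 10 counts in a library. It compares 2 libraries beyond counting error and no condition. By the same test 46.8% of all 395 genes differed, 25.6% being higher and 21.3% lower in pup 3, so 3 of 10 members is no more than the tables' background. Some marker genes of position and of blood differed more between the same libraries. The Hox-encoded genes summed to 57126 CPM in pup 1 and 34281 in pup 3, with log2 folds of -0.65 for Mir10a and -1.09 for Mir10b. Others of that list, Mir615 (-0.07), Mir196b (-0.38) and Mir196a-2 (0.35, the other way, at 6 and 10 counts), were not called, and Mir196a-1 was at 0. Of the red blood cell genes, Mir451a had a log2 fold of -1.88 and Mir144 of 1.91. The part of dissection or blood content in the members' folds was not tested. With TMM factors over genes with at least 10 counts, 76 genes were higher and 105 lower in place of 101 and 84. The median log2 fold was -0.02 over the 10 members and 0.02 over all genes tested.

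The gene called higher was Mir467e, with a log2 fold of 0.21 (counting interval 0.15 to 0.27, adjusted p = 7.68e-12 by the exact binomial test). Mir669o was lower, with a log2 fold of -0.21 (interval -0.34 to -0.08, adjusted p = 0.00345 by the exact test). Mir467c was also lower, with a log2 fold of -0.13 (interval -0.22 to -0.04, exact test, adjusted p = 0.00808). All 3 folds lay within 1 SD (0.34) of a single-gene log2 fold between these pups, from edgeR's common biological coefficient of variation of 16.6% over 361 genes. This SD leaves out counting error, which is larger at low counts, and comes from the same 2 libraries. With plain library totals in place of TMM the call of Mir467c was lost (exact test, adjusted p = 0.152).

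The other 7 members did not pass. Mir467d had a log2 fold of 0.02 (interval -0.05 to 0.09), Mir669l of -0.06 (-0.19 to 0.08) and Mir669c of -0.13 (-0.32 to 0.06). Mir669e, Mir466n and Mir297a-2 had log2 folds of 0.36, 0.26 and 0.50, and Mir669h of -0.75, each with an interval that held 0. The interval of Mir669h ran from -1.83 to 0.28, at 20 and 15 counts.

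**Figure D4:**
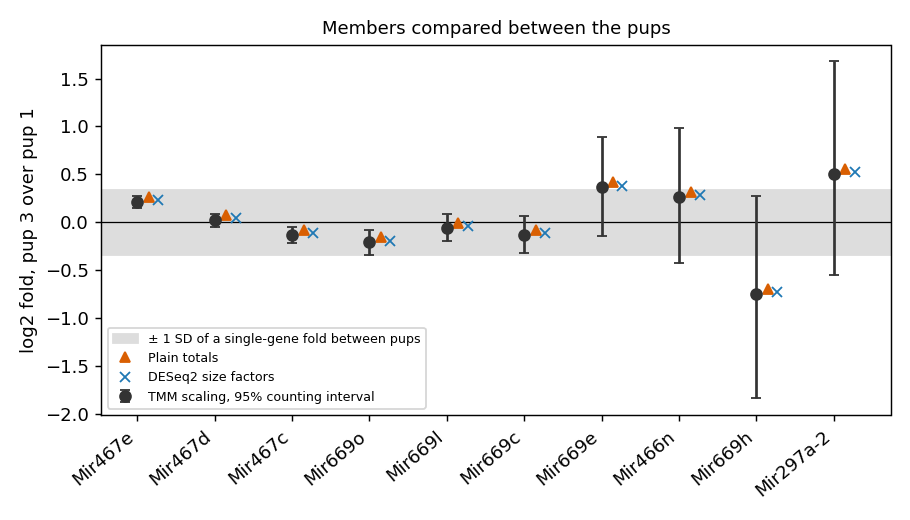
Log2 fold of pup 3 over pup 1 for the 10 members, in order of mean CPM, with 95% counting intervals under TMM scaling (circles) and values under plain totals (triangles) and DESeq2 size factors (crosses). The grey band is 1 SD of a single-gene fold between the pups, estimated over 361 genes (0.34). That SD leaves out counting error and comes from the same 2 libraries. Of the 10 members 7 lie inside the band, as do 260 of all 395 genes tested (65.8%).

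The make-up of the array shifted slightly between the pups, in a way that no scaling of libraries can change. Mir467e made up 33.9% of the array's counts in pup 1, with an exact interval of 33.0% to 34.8%. In pup 3 it made up 38.3% (37.5% to 39.1%). Mir467d held 27.5% and 27.2%, with intervals that overlapped (26.7% to 28.4% and 26.5% to 27.9%). Mir467c held 18.1% in pup 1 (17.4% to 18.9%) and 16.1% in pup 3 (15.5% to 16.7%). The ratio of Mir467e to Mir467d, both in the last block, was 1.23 in pup 1 and 1.41 in pup 3. With 1 library for each pup these intervals cover counting error alone.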

How the data were processed

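MicroRNA genes were counted in 1 library from each of 2 newborn hindbrains. The authors deposited raw counts for each gene, on mm10 and GENCODE M4 according to listings that accompany them. For aligner and trimming the sources used here give nothing. No header names the 3 count columns. Column layout and strand were inferred from the values, and the column taken as the strand of the gene was used. Totals leave out 4 rows without a gene. CPM used totals of that column (2459757 and 3012320 counts). Coordinates came from GENCODE M21, which matched 1894 of 1973 rows by identifier. Of the 79 unmatched rows, 2 had a count.

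Sharing of 20 nt was computed over 2202 M21 precursors, overlapping genes excluded. Folding used RNAfold 2.7.2. Scaling used edgeR 4.0.16 (TMM over all genes) or DESeq2 1.42.0 size factors in R 4.3.3, and tests scipy 1.17.1, with a prior of 0.5 counts for folds. With 1 library a side, edgeR's quasi-likelihood test was not used. On simulated data with counting error only, over 388 genes, calls were made at 82 of 98 genes with a 2-fold change, 71 of 96 with a 1.5-fold change and 5 of 194 without change. The rule named members that reached 10 counts in a library and members with the only counts of their family. Members, lists and rules were chosen with earlier results of these data known.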

Additional observations from a re-analysis of the deposited data

Results flagged for a closer look

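Reads that mapped to several loci lie outside every value above, since they carry no gene. They made up 40.2% of all reads in pup 1 (2337021 of 5812558) and 42.0% in pup 3 (3015969 of 7175976). How many of them came from the Sfmbt2 array was not tested.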

How the results depend on the processing

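The share of counts held by the array ranged from 0.451% to 0.481% when either pup was left out, and the number of members with a count from 17 to 20, against 22 with both. That number was 10 at a limit of 10 counts in either library and 8 at 10 CPM in both. The array's log2 fold was 0.023 with counts of either strand, its interval then holding 0. Chosen after seeing the data, TMM factors over genes with at least 10 counts gave -0.035 and leaving out Mir467e gave -0.059. The former also turned Mir467d to -0.051, and lowered all folds by 0.13 relative to plain totals. Plain totals left 1 member called lower in place of 2. For each of these changes the cause was not tested. Members on either strand of Sfmbt2 were the same 107 genes, and a shared stretch of 18 or 22 nt left 105 sharing members, as 20 nt did. With 1 library for each pup, leaving out a pup allows no comparison. No paired analysis was possible because the series has 1 group. Members below 10 counts were not compared between the pups.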
